A study of Mus musculus with 6 samples.

Results

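The 8 genes described here encode kinases that act on calcium and lipid signals at synapses: the 4 subunits of calcium/calmodulin-dependent kinase II (Camk2a, Camk2b, Camk2d and Camk2g), the nuclear kinase Camk4 with its activator Camkk2, and the protein kinase C isoforms Prkca and Prkcb. They were taken by symbol from the 54134 gene rows of each count table, and all 8 were found and passed the filter on low counts that left 18705 genes for testing. Bulk RNA was sequenced from the prefrontal cortex, with 2 biological duplicates (separate mice, 6 to 8 weeks old) in each of 3 groups. The first group was heterozygous for a deletion in Shank3 (labelled Shank3 +/∆C) and received GSK-LSD1, an inhibitor of the histone demethylase LSD1. The second had the same Shank3 genotype and received vehicle, and the third was wild type (WT, a cross of C57BL/6 and C3H) and received vehicle. Both mutant groups carry the Shank3 allele, and no WT mice given GSK-LSD1 were analysed here. The sources used here give neither the strain background of the mutants nor the dose and schedule of the inhibitor, so genotype and any strain difference cannot be told apart. Shank3 is a scaffold protein of excitatory synapses.

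CaMKII is a holoenzyme of many subunits that calcium-bound calmodulin activates. Once active, it can phosphorylate itself and stay active after calcium has fallen, and in forebrain excitatory neurons it is abundant in the postsynaptic density and needed for long-term potentiation. Camkk2 phosphorylates and so activates Camk4, which in turn phosphorylates the transcription factor CREB in the nucleus. Camkk2 also phosphorylates the energy sensor AMPK. Prkca and Prkcb are conventional protein kinase C isoforms, which need both calcium and diacylglycerol and take part in presynaptic and postsynaptic plasticity.

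None of the 8 kinase genes passed the test in any of the 3 comparisons at an adjusted p under 0.05 (edgeR's quasi-likelihood test, Benjamini-Hochberg adjustment over 18705 genes). All 8 had lower mean levels in the vehicle-treated mutants than in WT, with the sign of Camk2a, Camk2g and Camkk2 turning when libraries were scaled by size alone or corrected for length and GC content. All 8 had lower mean levels in the GSK-LSD1-treated mutants than in WT. The fitted log2 fold changes in those comparisons lay between -0.36 and -0.01. The lowest of all was Camk4 in GSK-LSD1-treated mutants against WT (log2 fold change -0.36 ± 0.12, SE, unadjusted p = 0.00791, adjusted p = 0.133). Between the mutant groups the fitted values were of both signs, 5 negative and 3 positive. With 2 libraries a group, the smallest change called among the 2349 genes of at least 100 CPM (reads scaled to the library total) was 0.42 on the log2 scale in vehicle-treated mutants against WT and 0.39 in GSK-LSD1-treated mutants against WT, above every value of the 8 kinases.

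The libraries held 23538125 and 14133834 counted reads in the GSK-LSD1-treated mutants, 21734688 and 21488920 in the vehicle-treated mutants, and 15194848 and 28646960 in WT. Each kinase had at least 1969 reads in every library (Camk2d in GSK-LSD1 library 2). The 8 genes together took 0.385% to 0.441% of counted reads. The chi-square of the duplicates' counts per degree of freedom was 13.3 in GSK-LSD1-treated mutants, 10.1 in vehicle-treated mutants and 9.97 in WT, beyond sampling noise, and all libraries were kept as separate samples. Shank3 itself, counted over the whole gene including exons outside the deleted part, averaged 154 CPM in GSK-LSD1-treated mutants, 160.1 CPM in vehicle-treated mutants and 156 CPM in WT, and this value does not check the genotype labels. Levels are CPM, scaled by edgeR's TMM method, and are not divided by gene length unless stated.

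Of the CaMKII subunits, Camk2a (chromosome 18, 60925618 to 60988152, plus strand, GRCm38), the alpha subunit typical of forebrain excitatory neurons, had 1367.4 and 1237.5 CPM in the GSK-LSD1-treated mutants, 1218.0 and 1463.6 CPM in the vehicle-treated mutants, and 1350.1 and 1432.2 CPM in WT. The vehicle-treated mutants held both the highest and the lowest library, and every pair of groups overlapped. Its log2 fold change was -0.05 in vehicle-treated mutants against WT (95% interval -0.31 to 0.20), -0.04 in GSK-LSD1-treated against vehicle-treated mutants (-0.30 to 0.22) and -0.09 in GSK-LSD1-treated mutants against WT (-0.35 to 0.16).

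Camk2b (chromosome 11, 5969644 to 6066362, minus strand), the beta subunit, which binds actin, had 713.68 and 626.55 CPM in the GSK-LSD1-treated mutants, 653.79 and 678.53 CPM in the vehicle-treated mutants, and 822.28 and 762.62 CPM in WT. All 4 mutant libraries lay below both WT libraries, while the mutant groups overlapped. The log2 fold change was -0.25 ± 0.11 in vehicle-treated mutants against WT (SE, 95% interval -0.49 to -0.01, adjusted p = 0.323 by edgeR) and -0.24 ± 0.11 in GSK-LSD1-treated mutants against WT (adjusted p = 0.311). Between the mutant groups it was 0.01 (-0.23 to 0.25).

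Camk2d (chromosome 3, 126596302 to 126846326, plus strand), the delta subunit, best known from heart muscle, had 150.68 and 134.15 CPM in the GSK-LSD1-treated mutants, 110.86 and 150.92 CPM in the vehicle-treated mutants, and 169.07 and 156.02 CPM in WT. It varied most of the 8 genes over the 6 libraries (coefficient of variation 13.9%), with its lowest value in vehicle library 1. All 4 mutant libraries lay below both WT libraries. The log2 fold change against WT was -0.31 ± 0.13 in vehicle-treated mutants (adjusted p = 0.287 by edgeR) and -0.19 ± 0.13 in GSK-LSD1-treated mutants (adjusted p = 0.541), and between the mutant groups it was 0.12 (95% interval -0.16 to 0.40). Over 16 alternative settings the value in GSK-LSD1-treated mutants against WT ran from -0.28 to -0.0036. The vehicle value was -0.11 without vehicle library 1 (adjusted p = 0.846) and -0.55 without vehicle library 2 (adjusted p = 0.149).

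Camk2g (chromosome 14, 20734875 to 20794088, minus strand), the gamma subunit, which in neurons carries calmodulin to the nucleus, was the steadiest of the 8 genes, with a coefficient of variation of 4.43%. It had 271.00 and 253.25 CPM in the GSK-LSD1-treated mutants, 279.64 and 258.99 CPM in the vehicle-treated mutants, and 273.32 and 284.47 CPM in WT. Both GSK-LSD1 libraries lay just below WT, and the vehicle-treated mutants overlapped both. The lowest of its 3 log2 fold changes was -0.09, in GSK-LSD1-treated mutants against WT (95% interval -0.31 to 0.13, adjusted p = 0.756 by edgeR).

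**Figure D1:**
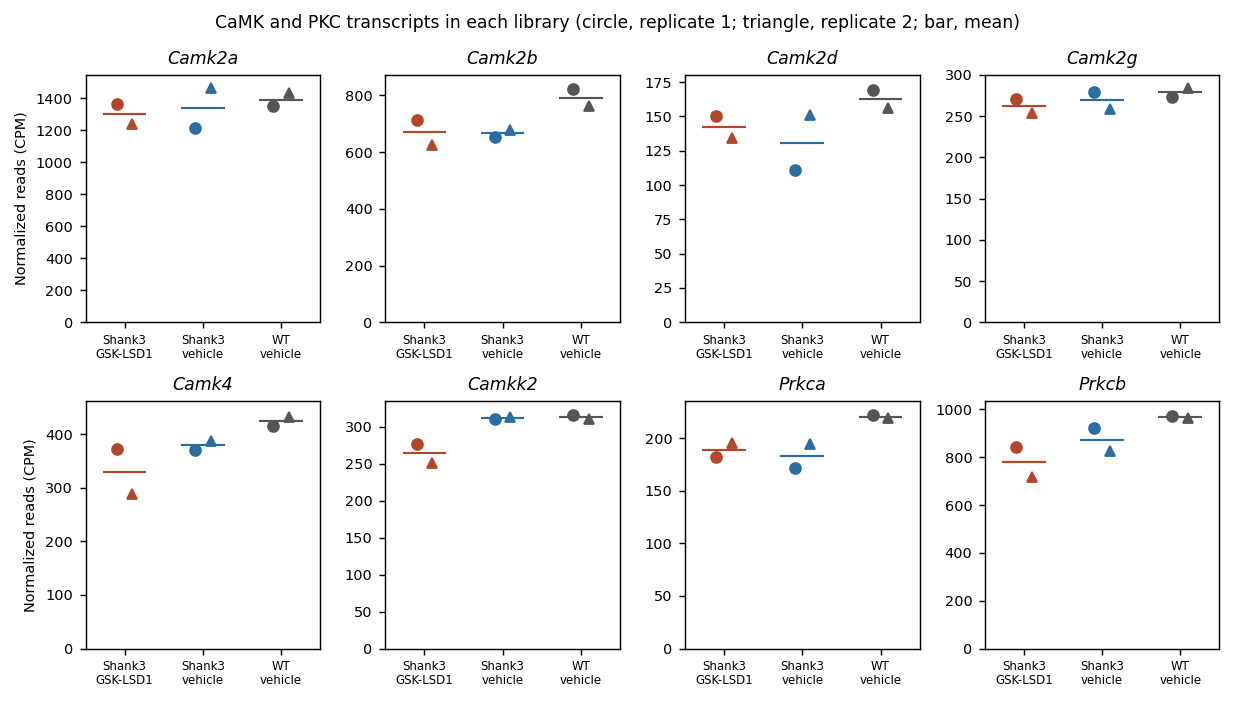
CPM (y axis, from 0) of each kinase gene in the GSK-LSD1-treated mutants, the vehicle-treated mutants and WT (x axis); circles and triangles are the 2 libraries of a group and bars their mean. The WT libraries sit above all 4 mutant libraries for Camk2b, Camk2d, Camk4, Prkca and Prkcb, while the groups overlap for Camk2a. The share of all tested genes with both mutant groups below WT was not counted. Of all tested genes, 46.2% had no overlap between vehicle-treated mutants and WT, in either direction. For GSK-LSD1-treated mutants and WT it was 45.8%.

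Camkk2 (chromosome 5, 122731170 to 122779409, minus strand), the kinase upstream of Camk4 and AMPK, had 277.28 and 251.55 CPM in the GSK-LSD1-treated mutants, 310.21 and 313.28 CPM in the vehicle-treated mutants, and 316.10 and 311.03 CPM in WT. It was the one member whose GSK-LSD1 libraries both lay on the same side of the range of the vehicle-treated mutants, here below it. The vehicle-treated mutants and WT overlapped and averaged 312 ± 2.17 CPM and 314 ± 3.58 CPM (SD, n = 2). GSK-LSD1-treated against vehicle-treated mutants gave -0.24 ± 0.10 (log2, SE, 95% interval -0.46 to -0.02, unadjusted p = 0.0363, adjusted p = 0.843 by edgeR). Against WT the GSK-LSD1-treated mutants gave -0.25 ± 0.10 (adjusted p = 0.259).

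Camk4 (chromosome 18, 32934931 to 33191228, plus strand), the nuclear kinase, had 371.49 and 288.20 CPM in the GSK-LSD1-treated mutants, 371.30 and 386.61 CPM in the vehicle-treated mutants, and 415.21 and 432.98 CPM in WT. The 2 GSK-LSD1 libraries differed from each other by more than the other duplicates of this gene, and library 2 held its lowest value of all. The vehicle-treated mutants gave -0.16 ± 0.12 against WT (adjusted p = 0.610), and the GSK-LSD1-treated mutants gave -0.36 ± 0.12 against WT (95% interval -0.62 to -0.11, adjusted p = 0.133). This last value is the only one among the 8 genes that reached the threshold in any alternative setting. DESeq2 gave -0.37 with an adjusted p of 0.0401, and leaving out GSK-LSD1 library 1 gave -0.56 with an adjusted p of 0.0167, while leaving out GSK-LSD1 library 2 gave -0.19 (adjusted p = 0.652). An antisense transcript, 2310026I22Rik, shares 72 bases (2.21%) of the exons of Camk4, and the sources used here do not say whether strand was used in counting.

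Prkca (chromosome 11, 107933387 to 108343928, minus strand), protein kinase C alpha, had 182.44 and 195.27 CPM in the GSK-LSD1-treated mutants, 172.00 and 194.32 CPM in the vehicle-treated mutants, and 221.78 and 219.22 CPM in WT. All 4 mutant libraries lay below WT. It had the smallest p of the 8 genes for vehicle-treated mutants against WT, at -0.27 ± 0.11 (95% interval -0.49 to -0.05, unadjusted p = 0.0208, adjusted p = 0.244 by edgeR). The GSK-LSD1-treated mutants gave -0.22 ± 0.11 against WT (adjusted p = 0.314) and 0.04 ± 0.11 against the vehicle-treated mutants. Apoh, on the opposite strand, shares 30 bases (0.334%) of its exons.

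Prkcb (chromosome 7, 122288751 to 122634402, plus strand), protein kinase C beta, had 844.30 and 717.17 CPM in the GSK-LSD1-treated mutants, 922.08 and 824.87 CPM in the vehicle-treated mutants, and 973.62 and 964.71 CPM in WT. The group means were ordered as for Camk4, Camk2a, Camk2g and Camkk2, with GSK-LSD1-treated mutants lowest and WT highest. GSK-LSD1 library 2 held the lowest value, as it did for Camk2b, Camk2g, Camk4 and Camkk2. The GSK-LSD1-treated mutants gave -0.31 ± 0.12 against WT (95% interval -0.56 to -0.06, adjusted p = 0.195 by edgeR), the vehicle-treated mutants gave -0.15 ± 0.12 against WT (adjusted p = 0.639), and the 2 mutant groups differed by -0.16 ± 0.12 (adjusted p = 0.986).

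The first comparison set the vehicle-treated mutants against WT, 2 groups that differ in Shank3 genotype, and possibly in strain, without the inhibitor. Of the 8 genes 0 were called by edgeR and 0 by DESeq2, where edgeR called 1.27% of all tested genes (238 genes, 52 higher and 186 lower, and 15 higher and 20 lower with scaling by library size alone). At an unadjusted p under 0.05 there were 3 of 8 (Camk2b, Camk2d and Prkca), against 14% of all tested genes. Libraries of the groups did not overlap for 5 of 8, with the mutants below WT each time, and 46.2% of all tested genes had no overlap in either direction. The median log2 fold change of the 8 genes was -0.16, against 0.02 over all tested genes, and 8 of 8 were negative, against 47.7% of all tested genes (5 of 8 with scaling by library size alone). Abundant genes leaned the same way: of the 2349 genes with at least 100 CPM, which include all 8 kinases, 70.7% were negative with a median of -0.10. Of these 2349 genes edgeR called 4.60%. With offsets for length and GC content 5 of 8 were negative, with a median of -0.11.

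The second comparison set the GSK-LSD1-treated against the vehicle-treated mutants, and so addresses the inhibitor within 1 genotype. Again 0 of 8 were called by edgeR and 0 by DESeq2, against 0.107% of all tested genes (20 genes, 19 higher and 1 lower). Camkk2 was the 1 of 8 at an unadjusted p under 0.05 (5.7% of all tested genes) and the 1 of 8 without overlap (33.6% of all tested genes). The median of the 8 genes was -0.04, against 0.00 over all tested genes, and 5 of 8 were negative, against 50.1%. Camkk2, Camk4 and Prkcb had the lowest values, -0.24, -0.20 and -0.16, and Camk2d the highest, 0.12.

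The third comparison set the GSK-LSD1-treated mutants against WT. It shares the WT libraries with the first comparison and the treated libraries with the second, so the signs of the 3 are not independent. Of the 8 genes 0 were called by edgeR and 1, Camk4, by DESeq2, which called 793 of all 18705 tested genes. Over all tested genes edgeR called 2.62% (491 genes, 119 higher and 372 lower, and 111 higher and 142 lower with scaling by library size alone). At an unadjusted p under 0.05 there were 5 of 8 (Camk2b, Camk4, Camkk2, Prkca and Prkcb), against 15.7%, and there was no overlap for 7 of 8, with the mutants below WT, against 45.8% of all tested genes in either direction. The median of the 8 genes was -0.23, against 0.02 over all tested genes. Of the genes with at least 100 CPM, 71.8% were negative with a median of -0.12, and edgeR called 9.11% (193 of 214 lower). Side by side in the order of the 3 comparisons, Camk4 gave -0.16, -0.20 and -0.36, Camkk2 -0.01, -0.24 and -0.25, and Prkca -0.27, 0.04 and -0.22.

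**Figure D2:**
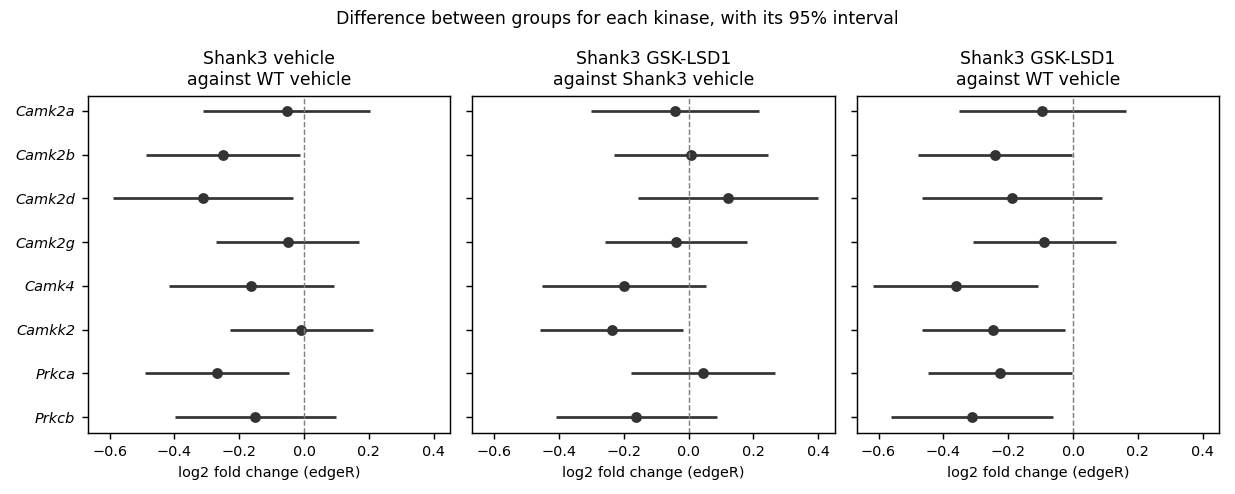
Log2 fold change (x axis) of each kinase gene (rows) in the 3 comparisons, with lines for the 95% interval and a dashed line at 0. The intervals exclude 0 for Camk2b, Camk2d and Prkca in vehicle-treated mutants against WT, for Camkk2 between the mutant groups, and for Camk2b, Camk4, Camkk2, Prkca and Prkcb in GSK-LSD1-treated mutants against WT, before any adjustment for the number of genes.

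Library by library, both WT libraries lay above the 6-library mean for all 8 genes, with medians of 0.16 and 0.11 on the log2 scale. GSK-LSD1 library 2 lay below it for all 8 (median -0.14), whereas GSK-LSD1 library 1 (4 of 8 above), vehicle library 1 (3 of 8) and vehicle library 2 (4 of 8) were mixed. The share of all tested genes with these patterns was not counted. Of the genes with at least 100 CPM, 70.7% were lower in vehicle-treated mutants and 71.8% in GSK-LSD1-treated mutants than in WT. All 10 excitatory neuron markers of the list were detected, as the tissue label implies, and their summed levels were 3692 and 2995 CPM in the GSK-LSD1-treated mutants, 3564 and 3229 CPM in the vehicle-treated mutants, and 4246 and 4143 CPM in WT. Of these excitatory markers edgeR called 1 lower in vehicle-treated mutants against WT, 0 between the mutant groups and 2 lower in GSK-LSD1-treated mutants against WT (DESeq2 called 2, 0 and 4), with medians of -0.27, 0.00 and -0.22 on the log2 scale. Summed levels of 10 oligodendrocyte markers were 2435 and 5727 CPM in the GSK-LSD1-treated mutants, 6021 and 6067 CPM in the vehicle-treated mutants, and 2606 and 2395 CPM in WT, with 0 of 10 called by edgeR in any comparison (in vehicle-treated mutants against WT DESeq2 called 1, and 1 had an unadjusted p under 0.05). Of 8 astrocyte markers 2 rose in vehicle-treated mutants and 4 in GSK-LSD1-treated mutants against WT, and their sums ran from 5231 to 5277 CPM in GSK-LSD1-treated mutants, from 5244 to 5414 CPM in vehicle-treated mutants, and from 3844 to 4743 CPM in WT. Oligodendrocyte precursor markers, of which 1 of 6 rose in vehicle-treated mutants against WT, summed to 239 and 307 CPM in GSK-LSD1-treated mutants, 258 and 311 CPM in vehicle-treated mutants, and 186 and 205 CPM in WT. Of 10 inhibitory neuron markers 0 passed in any comparison by edgeR or DESeq2 (1 at an unadjusted p under 0.05, in vehicle-treated mutants against WT). The 3 tested markers of hypothalamus, septum and preoptic area, of 10 in that list, summed to 18.7 and 52.8 CPM in GSK-LSD1-treated mutants. Their sums were 14.6 and 27.8 CPM in vehicle-treated mutants, and 15.4 and 14.6 CPM in WT. The highest sum was that of GSK-LSD1 library 2, which had the lowest kinase median (-0.14). Camk2a, Camk2d and Prkca were lowest in vehicle library 1 instead. The 8 tested markers of choroid plexus and erythrocytes summed to 34.3 and 59.2 CPM in GSK-LSD1-treated mutants, 89.0 and 187 CPM in vehicle-treated mutants, and 255 and 110 CPM in WT, while 2 of them, Kl and Clic6, rose in GSK-LSD1-treated mutants against WT (1.32 and 5.02 on the log2 scale). In bulk RNA, fewer cells of a type and less RNA per cell cannot be told apart, and the part of cell makeup in the kinase levels was not tested.

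As a description, kinase levels were also set against the excitatory markers of the same library. The 8 genes summed to 1131.6 and 1236.5 per 1000 CPM of excitatory markers in the GSK-LSD1-treated mutants, 1133.1 and 1322.9 in the vehicle-treated mutants, and 1069.6 and 1101.5 in WT. On this scale the WT libraries were the lowest instead of the highest. The log2 ratio of group means for the sum was 0.18 in vehicle-treated mutants against WT and 0.13 in GSK-LSD1-treated mutants against WT, and across the single genes against WT only Camk4 in GSK-LSD1-treated mutants was negative, at -0.04.

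**Figure D3:**
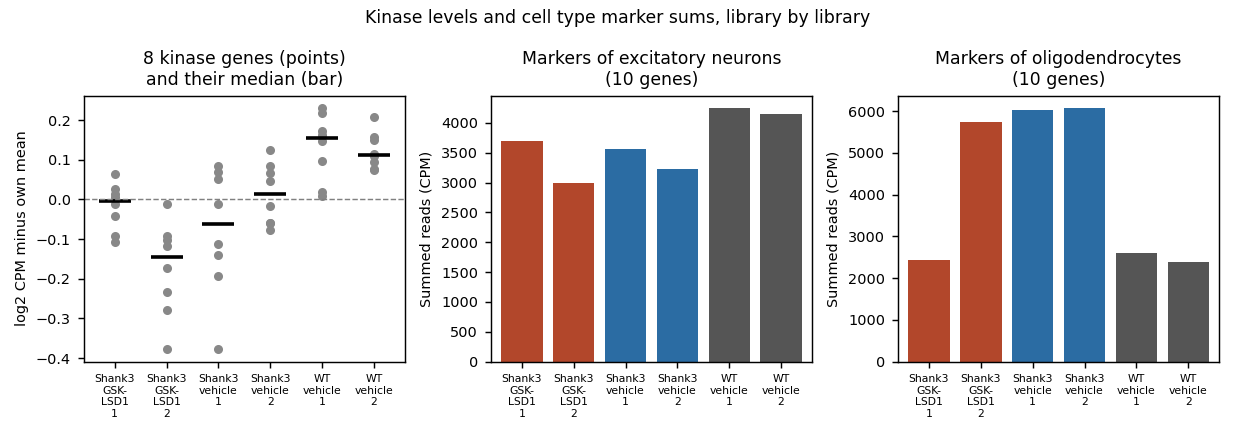
Left, log2 CPM of the 8 kinase genes in each library minus each gene's own mean over the 6 libraries (points, median as a bar); middle and right, summed CPM of 10 markers each of excitatory neurons and oligodendrocytes per library. WT libraries hold the highest kinase medians (0.16 and 0.11) and excitatory sums, and oligodendrocyte sums are high in vehicle libraries and GSK-LSD1 library 2 only.

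Within the CaMKII family Camk2a held the largest share in all 6 libraries. Reads per kb of merged exons from Camk2a made up 59.1% ± 0.144 of the family in GSK-LSD1-treated mutants, 59.7% ± 2.95 in vehicle-treated mutants and 57.5% ± 1.69 in WT (SD, n = 2). Camk2b made up 24.9% ± 0.473, 24.3% ± 1.32 and 26.8% ± 1.76 in the same groups, Camk2g 13.9%, 14.1% and 13.4%, and Camk2d 2.14%, 1.93% and 2.23%. The Camk2a shares of the vehicle libraries (57.6% and 61.7%) overlapped those of both other groups. With the longest coding transcript in place of merged exons, a setting added after the data were seen, Camk2a made up 49.9% in GSK-LSD1-treated mutants, 50.6% in vehicle-treated mutants and 48.1% in WT. The shares depend on the length used, and with 2 libraries a group the smallest two-sided exact permutation p is 0.333, so no test was made.

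**Figure D4:**
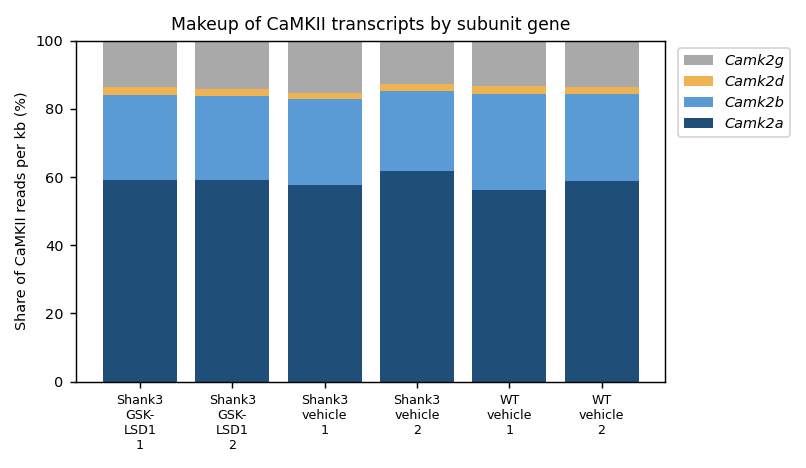
Share of CaMKII reads per kb of merged exons (y axis, percent) from each subunit gene in each library. Camk2a holds 56.3% to 61.7% in every library.

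Per kb of merged exons the 8 genes ordered as Camk2a (mean over 6 libraries 180 CPM per kb, 163 to 196), Camk4 (116, 88.4 to 133), Prkcb (114, 93.7 to 127), Camk2b (77.8, 68.7 to 90.1), Camk2g (42.2, 39.6 to 44.4), Camkk2 (27.2, 23.0 to 28.9), Prkca (22.0, 19.1 to 24.7) and Camk2d (6.46, 4.93 to 7.52). The ranges of Camk4 and Prkcb overlapped, as did those of Camkk2 and Prkca, and those of the other neighbours in this order did not. Within each library Camkk2 lay above Prkca. With the longest coding transcript as the length, Prkcb came first (300.4 CPM per kb) ahead of Camk2a (271), Camk2b (176) came ahead of Camk4 (139), and Camk2d (26.3) ahead of Prkca (23.5), each pair with overlapping ranges. The order therefore depends on which exons are counted as the gene.

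The kinases' own patterns across the 6 libraries were compared as root mean square differences of log2 CPM centred on each gene's mean. The closest pairs were Camk4 with Prkcb (0.0806), Camkk2 with Prkcb (0.0822) and Camk2b with Prkca (0.0950), and the farthest was Camk2d with Prkcb (0.217). Of 7709 genes with a mean of at least 20 CPM, those nearest to Camk2b were Cdc42bpb (0.0181), Kat2a (0.0193) and Edem3 (0.0199). The nearest to Camk2a were Suz12 (0.0324), Dact3 (0.0334) and 6430548M08Rik (0.0370), and the nearest to Prkcb were Ywhab (0.0226), Pak7 (0.0294) and Kcna6 (0.0308). The medians over all candidates were 0.154, 0.152 and 0.168, and over 6 libraries that share depth and makeup these distances are a description.

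The promoters of Camkk2 and Prkcb, the closest pair with a promoter window, are shown so that their base composition and motifs can be read. Both windows come from RefSeq (GRCm38.p6) and run from 250 bases before to 50 bases after RefSeq's start of the gene, 5′ to 3′ on the gene's strand; capitals mark the GC box, GGGCGG read on either strand, the site that Sp1-like factors bind. The Camkk2 window is chr5:122779361-122779660 on the minus strand, and the Prkcb window is chr7:122288875-122289174 on the plus strand. RefSeq's start of Prkcb lies downstream of the GENCODE start given above, so its window lies inside the GENCODE gene.
Camkk2: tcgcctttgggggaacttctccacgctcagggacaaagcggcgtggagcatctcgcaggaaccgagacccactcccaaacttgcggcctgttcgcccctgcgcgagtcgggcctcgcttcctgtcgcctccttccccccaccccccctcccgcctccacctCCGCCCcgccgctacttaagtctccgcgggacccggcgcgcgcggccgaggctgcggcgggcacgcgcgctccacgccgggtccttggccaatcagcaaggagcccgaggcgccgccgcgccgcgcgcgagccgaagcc
Prkcb: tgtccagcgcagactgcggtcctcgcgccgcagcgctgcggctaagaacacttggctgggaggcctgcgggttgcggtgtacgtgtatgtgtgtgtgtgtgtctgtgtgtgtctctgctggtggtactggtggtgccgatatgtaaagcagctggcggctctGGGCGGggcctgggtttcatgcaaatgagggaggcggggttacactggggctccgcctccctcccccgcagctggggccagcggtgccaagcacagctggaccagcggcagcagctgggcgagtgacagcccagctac

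Windows were found for 5 of the 8 genes (Camk2b, Camk2d, Camkk2, Prkca and Prkcb). Their GC content ran from 65.3% to 77.3%, against a median of 52.7% over 32851 windows, and they held 19 to 51 CpG, against a median of 7. A GC box was present in 5 of 5, against 35.7% of all windows. The share among windows of like GC content was not counted, so this is no trait of the kinase promoters beyond their GC content. The cyclic AMP response element TGACGTCA, which CREB binds, was in 0 of 5 (1.79% of all windows), and its shorter core TGACG on either strand, which also lies inside the full element, in 0 of 5 (20.8%). The absence of these letters from this window says nothing about CREB binding elsewhere.

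Other genes of the same pathways were then counted in 9 lists holding 99 genes, all of them tested. In vehicle-treated mutants against WT edgeR called 0, against 1.27% of all tested genes, and DESeq2 called 4, against 590 of all 18705 tested genes. At an unadjusted p under 0.05 there were 23 of 99, against 14% of all tested genes. Between the mutant groups 0 were called by edgeR or DESeq2 (9 of 99 at an unadjusted p under 0.05, against 5.7% of all tested genes). In GSK-LSD1-treated mutants against WT 1 rose and 5 fell (6.06%, against 2.62% of all tested genes and 9.11% of the genes with at least 100 CPM). Some of the 99 genes, such as Rps6ka3, lay under 100 CPM. The median log2 fold changes of the 99 genes were -0.09, 0.01 and -0.05 in that order of comparisons.

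In GSK-LSD1-treated mutants against WT 5 genes fell. Rps6ka3, the ERK-activated kinase RSK2, had 48.2 and 46.3 CPM in GSK-LSD1-treated mutants, 61.3 and 56.0 CPM in vehicle-treated mutants, and 70.1 and 75.6 CPM in WT, and its log2 fold change of -0.62 ± 0.11 (adjusted p = 0.00648 by edgeR) lost its call only without WT library 1 (-0.68, adjusted p = 0.0717). Braf, the MAP kinase kinase kinase, fell by 0.42 ± 0.10 on the log2 scale (adjusted p = 0.0386), and these were the 2 of 15 genes of the Ras and ERK cascade to pass. Dgkh, a diacylglycerol kinase, which removes the lipid that activates protein kinase C, fell by 0.52 ± 0.11 on the log2 scale (adjusted p = 0.0161). Dgkh was the 1 gene to pass in a list of 18 around diacylglycerol supply and removal. Nrgn, neurogranin, which binds calmodulin and is a protein kinase C substrate, had 359 and 342 CPM in GSK-LSD1-treated mutants, 413 and 414 CPM in vehicle-treated mutants, and 486 and 448 CPM in WT (-0.41 ± 0.11, adjusted p = 0.0463, 1 of 12 substrates and anchors). Prkab2, an AMPK beta subunit, fell by 0.53 ± 0.13 on the log2 scale (adjusted p = 0.0413, 1 of 7 AMPK genes). These 4 calls depended on the setting. Braf and Nrgn were lost when any 1 of the 6 libraries was left out (adjusted p from 0.0520 to 0.388 for Braf and from 0.0529 to 0.472 for Nrgn). Dgkh was lost without GSK-LSD1 library 2 (-0.47, adjusted p = 0.0876) or WT library 1 (-0.44, adjusted p = 0.268), and Prkab2 without GSK-LSD1 library 2 (-0.46, adjusted p = 0.227), vehicle library 1 (-0.53, adjusted p = 0.0538) or WT library 1 (-0.37, adjusted p = 0.518). Scaling by library size alone, the fit without the robust option and the fit of only the 4 libraries compared each ended the calls of Braf (adjusted p from 0.0575 to 0.0822), Nrgn (from 0.0638 to 0.0905) and Prkab2 (from 0.0661 to 0.0999). Offsets for length and GC content ended those of Braf (-0.32, adjusted p = 0.131) and Dgkh (-0.39, adjusted p = 0.0679). In all, 11 of 16 alternatives ended the call of Braf, 10 that of Nrgn, 6 that of Prkab2 and 4 that of Dgkh.

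Pnck, a CaM kinase of the CaMKI family, rose in GSK-LSD1-treated mutants against WT (0.51 ± 0.12, adjusted p = 0.0262 by edgeR), the 1 of 9 other CaM kinases to pass. It had 79.4 and 65.0 CPM in GSK-LSD1-treated mutants, 48.5 and 51.7 CPM in vehicle-treated mutants, and 53.7 and 47.9 CPM in WT. The treated libraries stood above all 4 others, and the value against vehicle-treated mutants was 0.53 (adjusted p = 0.131). The call was lost without GSK-LSD1 library 1 (0.35, adjusted p = 0.172), WT library 1 (0.59, adjusted p = 0.149) or WT library 2 (0.43, adjusted p = 0.148).

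The other 4 lists had 0 genes called by edgeR in each comparison. They were CaMKII inhibitors and calmodulin (5 genes, the smallest p being that of Calm2), and calcineurin and protein phosphatase 1 (13 genes). The others were protein kinase A subunits with the inhibitors Pkia, Pkib and Pkig (9 genes), and CREB with its coactivators downstream of Camk4 (11 genes). At an unadjusted p under 0.05 these lists held 0, 2, 1 and 6 genes in vehicle-treated mutants against WT (14% of all tested genes). They held 0 each between the mutant groups (5.7% of all tested genes), and 0, 3, 2 and 4 in GSK-LSD1-treated mutants against WT (15.7%). DESeq2 called 2 genes of the CREB list in vehicle-treated mutants against WT, and 3 of it and 1 of the calcineurin list in GSK-LSD1-treated mutants against WT. Over all 18705 tested genes DESeq2 called 590 and 793 in these comparisons. In the CREB list the median log2 fold change was -0.23 in vehicle-treated mutants against WT, 0.01 between the mutant groups and -0.12 in GSK-LSD1-treated mutants against WT. Its gene with the smallest p was Ep300, a histone acetyltransferase that CREB recruits, at -0.51 in vehicle-treated mutants against WT (adjusted p = 0.0634) and -0.49 in GSK-LSD1-treated mutants against WT (adjusted p = 0.0539). Ppp1r9a, neurabin, which anchors protein phosphatase 1 at actin, gave -0.35 in GSK-LSD1-treated mutants against WT (unadjusted p = 0.00472), and Prkar2a, a regulatory subunit of protein kinase A, gave -0.27 (adjusted p = 0.267).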

How the data were processed

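The authors deposited 1 file of raw counts by gene symbol for each library. The submitters' processing notes name cutadapt, TopHat2, SAMtools, featureCounts and edgeR and the builds mm10 and GRCm38, with no order. Per the labels' protocols, libraries were strand-specific and ribosome-depleted. The sources used here give neither versions nor a strand setting. In each file 26 symbols had been turned into dates, none of them a gene named here. The counts were fitted with edgeR 4.0.16 (R 4.3.3, limma 3.58.1): filterByExpr, TMM, and a robust quasi-likelihood model of 3 groups over all 6 libraries, which left 3 residual degrees of freedom (biological coefficient of variation 11.5%). SE was taken from the size of the log2 fold change and the root of F. Tests were two-sided and adjusted over 18705 genes. The p-values and intervals measure the spread between duplicates, pooled in part over genes. A median of 14.7 prior degrees of freedom, shared across genes, was added to the 3 residual ones. A floor of 3 counts equals 0.105 to 0.212 CPM and covers counting error only. The fit was also run on counts simulated with known changes, using the spread estimated from these data. That simulation held no library differences in cell makeup or length bias, so it cannot show how the fit handles them. Gene positions and lengths come from GENCODE M21 (GRCm38). All 8 genes were named. From each pathway list the genes called in any comparison were named (up to 4 by p), or otherwise the gene with the smallest p. One further list is not reported here. The members, lists and tests were chosen with earlier results of these data known. Alternatives included DESeq2 1.42.0, other scaling, no filter, offsets for length and GC content, a replicate block and leaving out each library.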

Additional observations from a re-analysis of the deposited data

How the results depend on the processing

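Of the 8 kinases, 0 were called in each comparison in 46 of 48 alternative fits, and Camk4 in GSK-LSD1-treated mutants against WT was the exception (1 called with DESeq2, and 0 to 1 when a library was left out). The number of all genes called moved far more. In vehicle-treated mutants against WT it was 35 with library size scaling (15 higher and 20 lower, against 52 and 186), 590 with DESeq2, 807 without the filter, 11 without the robust option, 524 with only the 4 libraries compared, 136 with length and GC offsets (52 higher and 84 lower), 552 at an adjusted p under 0.1 and 6 to 656 with a library left out (6 without WT library 1, 416 without WT library 2, 8 without vehicle library 1, 20 without vehicle library 2, 626 without GSK-LSD1 library 1 and 656 without GSK-LSD1 library 2). Between the mutant groups it was 35 with DESeq2, 106 without the filter and 10 to 83 with a library left out (83 without GSK-LSD1 library 2, 11 without vehicle library 1 and 10 without vehicle library 2). In GSK-LSD1-treated mutants against WT it was 253 with library size scaling (111 higher and 142 lower, against 119 and 372), 793 with DESeq2, 962 without the filter, 871 at an adjusted p under 0.1 and 6 to 631 with a library left out (6 without WT library 1 and 197 without GSK-LSD1 library 2). Of the 99 other pathway genes, 0, 0 and 6 were called in the 3 comparisons, against 4, 0 and 15 with DESeq2, 5, 1 and 12 without the filter, 4, 0 and 13 at an adjusted p under 0.1, and 0, 0 and 3 with library size scaling or without the robust option. With only the 4 libraries compared they were 3, 0 and 3. With a library left out they ran from 0 to 3 in vehicle-treated mutants against WT, from 0 to 1 between the mutant groups and from 0 (without WT library 1) to 7 in GSK-LSD1-treated mutants against WT. The cause was not tested.

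Signs near 0 turned. In vehicle-treated mutants against WT, Camk2a, Camk2g and Camkk2 gave 0.0215, 0.0217 and 0.0649 with library size scaling, and 0.0174, 0.00038 and 0.11 with length and GC offsets. With the replicate block and those offsets Camk2a and Camkk2 gave 0.0168 and 0.11. With a library left out Camk2a ran from -0.19 to 0.0666 and Camk2g from -0.11 to 0.0040. Between the mutant groups Camk2b gave -0.0126 with length and GC offsets and -0.0154 with the block added. With a library left out, Camk2a ran from -0.16 to 0.0947, Camk2b from -0.0909 to 0.11, Camk2d from -0.0785 to 0.36, Camk2g from -0.0952 to 0.0219 and Prkca from -0.0375 to 0.13. Deviations of same-numbered libraries were nearly uncorrelated (0.076, -0.058 and -0.050). This cannot show whether a number marks a litter, batch or day, which the labels do not say. With the number as a replicate block 233, 18 and 505 genes were called in the 3 comparisons, and 0 kinases. The block ended the call of Nrgn in GSK-LSD1-treated mutants against WT (adjusted p = 0.0516), and with length and GC offsets added those of Dgkh (0.0536) and Braf (0.0885).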
